A study of Danio rerio with 2 samples.

Results

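Hindbrain neurons with *hox* transcripts were examined in zebrafish heads taken at 3 dpf, in which the RNA of single cells was sequenced. A cell was counted as a hox neuron if it held UMIs of at least 2 of the 5 genes *hoxa3a*, *hoxb3a*, *hoxb4a*, *hoxd4a* and *hoxb5b* and at least 2 UMIs of *elavl3*, a pan-neuronal RNA-binding protein, and no UMI of *gata3*, *otpa*, *otpb*, *phox2a* or *phox2bb*. These exclusion genes mark V2b-type and other inhibitory neurons (*gata3*), dopaminergic and neuroendocrine neurons (*otpa* and *otpb*), and noradrenergic and branchial motor neurons (*phox2a* and *phox2bb*). The members were thus selected on measured values, and the levels of these 11 genes are given only as a description. No gene of the rule separates hindbrain neurons from those of the anterior spinal cord, and markers of cranial ganglia were not used. Some members may therefore be neurons of these other sites. There were 415 hox neurons among the 27277 cells kept from the mutant library and 490 among the 37743 cells kept from the wild-type library, 905 of 65020 in all.

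Each library was made from 10 pooled heads, cut in front of the pectoral fin and dissociated with trypsin, from which viable cells were sorted. Mutants were homozygous for *polr3a* sa907, an ENU-induced nonsense allele of the largest subunit of RNA polymerase III (Pol III), and wild-type controls were *polr3a* +/+ larvae of the same crosses. The animals came from crosses of heterozygous carriers, 1 parent with *Tg(fli1a:egfp)* and the other with *Tg(sox10:mRFP)*, and larvae of both libraries were screened for GFP and RFP. Genotypes were read from fin clips before the heads were taken, and droplet libraries of 3′ tags were made from the sorted cells. The libraries held 204627512 UMIs in 32228 barcodes for mutants and 224911840 UMIs in 43611 barcodes for wild-type. Cells were kept with 500 to 20000 UMIs, 500 to 5000 genes and at most 20% mitochondrial UMIs. With 1 library per condition there was no replicate, so no test between the conditions was made, and every interval below covers counting error only, at 95%. *polr3a* itself had 44 UMIs in 38 mutant hox neurons (18.0 counts per 1000000 UMIs, CPM, interval 13.1 to 24.2) and 34 UMIs in 30 wild-type hox neurons (12.5 CPM, 8.69 to 17.5), a log2 ratio of 0.52 (−0.15 to 1.21). The tags do not read the altered base, so the genotype was not checked with them. By qRT-PCR on RNA of heads at the same age, the paper reports significantly less *polr3a* mRNA in homozygous mutants, and predicts some nonsense-mediated decay. Here the level in mutant hox neurons was not lower than in wild-type hox neurons. The cause of this disagreement with the paper was not tested, and "mutant" and "wild-type" stand for the libraries so labelled.

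Hox genes encode homeodomain transcription factors that give segments along the head-to-tail axis their identity. They lie in clusters, and the number in a gene's name is its paralogue group. Groups with low numbers are switched on up to more anterior borders in the hindbrain, and groups with high numbers start in the posterior hindbrain or the spinal cord, so the set of *hox* genes in a neuron reports roughly which rhombomeres it came from. Retinoic acid, made in the neighbouring mesoderm, turns these genes on, and the Meis and Pbx homeodomain proteins bind DNA together with Hox proteins. The posterior hindbrain holds reticulospinal, respiratory and premotor networks, with glutamatergic, GABAergic and glycinergic neurons that arise in dorsoventral domains, each with its own transcription factors.

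The share of cells that were hox neurons was 1.52% (1.38 to 1.67%) in the mutant library and 1.30% (1.19 to 1.42%) in the wild-type library. Among all cells with 2 or more *elavl3* UMIs, hox neurons made up 4.63% (4.201 to 5.08%) in mutants and 3.44% (3.15 to 3.75%) in wild-type. Detection of *hox* UMIs grows with depth, and the hox neurons had a median of 5125 UMIs and 2435 genes in mutants against 4662 UMIs and 2180.5 genes in wild-type. When every cell was thinned to 2000 UMIs before the rule was applied, 1.07% of mutant cells (222 of 20735) and 0.869% of wild-type cells (233 of 26823) were hox neurons, with intervals of 0.935 to 1.22% and 0.761 to 0.987% that overlap. As a share of the neurons they made up 3.45% (3.02 to 3.93%) in mutants and 2.35% (2.06 to 2.67%) in wild-type at this depth. Neurons as a whole were the smaller share in mutants, at 32.9% of cells against 37.7% in wild-type. Cells with at least 2 of the 5 *hox* genes and any level of *elavl3*, at 3.14% of thinned cells in both libraries, were alike in share. A different makeup of the tissue and a different yield of cells from dissociation cannot be told apart with these libraries. No barcode was shared between the hox neurons of the 2 libraries, although 294 of the cells kept carried a barcode found in both.

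Most members sat near the edge of the rule. Exactly 2 of the 5 *hox* genes were detected in 286 mutant and 336 wild-type hox neurons, 3 in 101 and 123, 4 in 26 and 30, and all 5 in 2 mutant cells and 1 wild-type cell. Just inside the *elavl3* limit, 19 mutant and 35 wild-type members held 2 *elavl3* UMIs, and just outside it 83 mutant and 121 wild-type cells with at least 2 of the *hox* genes held 1. A further 709 mutant and 1075 wild-type neurons held 1 of the 5 *hox* genes. The exclusion genes removed 299 mutant and 378 wild-type neurons that otherwise met the rule, called excluded hox neurons below. Neurons with none of the 5 *hox* genes and none of the exclusion genes, 5573 in mutants and 9114 in wild-type, are called hox-negative neurons.

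*hoxb3a* was the common denominator, with UMIs in 409 of 415 mutant and 472 of 490 wild-type members. The most frequent combination was *hoxb3a* with *hoxb5b* and no other gene of the 5, in 140 mutant members (33.7%) and 149 wild-type members (30.4%), followed by *hoxb3a* with *hoxd4a* in 78 and 109. In cells thinned to 2000 UMIs, *hoxb3a* was detected in 76.9% of mutant and 71.1% of wild-type hox neurons (98.6% and 96.3% without thinning), against 3.21% of mutant and 1.41% of wild-type photoreceptors. Photoreceptors, which should lack *hox* transcripts, had median depths of 4545 UMIs in mutants and 3830 UMIs in wild-type. A second set that should lack them, forebrain neurons with *foxg1a*, held *hoxb3a* in 10.4% of mutant and 12.7% of wild-type cells without thinning, at median depths of 6483 and 6023 UMIs, against 4.29% and 4.12% of photoreceptors. Free RNA and doublets were not separated in these shares.

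The 44 *hox* genes that the rule did not use described the same cells further. Of these genes, 15 had at least 100 UMIs in hox neurons, and 14 were at least 2-fold higher than in hox-negative neurons of the same library in both libraries, with a median log2 fold of 7.42 in mutants and 7.32 in wild-type over the 15. Over all genes with that many UMIs, 222 of 7886, or 2.82%, were at least 2-fold higher in both libraries, and 47, or 0.596%, at least 2-fold lower. *hox* genes of 1 cluster are expressed together, so their co-detection describes the selection and is no separate finding. *hoxb1b* had 192 CPM in mutant and 145 CPM in wild-type hox neurons, where hox-negative neurons had 0.308 and 0.617 CPM. *hoxa2b* was the exception, at 9.84 CPM in mutant and 28.4 CPM in wild-type hox neurons against 5.59 and 4.37 CPM in hox-negative neurons.

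Members were required to hold UMIs of groups 3 to 5, so high levels of these groups follow from the selection. Without the genes of the rule, groups 3, 4 and 5 had summed levels of 774, 1133 and 962 CPM in mutant hox neurons and of 707, 893 and 754 CPM in wild-type hox neurons. Group 1 had 301 CPM in 201 mutant cells and 224 CPM in 205 wild-type cells, and group 2 had 114 and 118 CPM. Group 6 had 164 CPM in mutants and 142 CPM in wild-type, and group 8 had 70.1 and 117 CPM. From group 9 on, the transcripts were all but missing. Groups 9 to 13 held 0, 1, 6, 2 and 0 UMIs in mutants and 8, 1, 0, 0 and 0 UMIs in wild-type, each in at most 2 cells. Cells were then placed by the highest-numbered group from 3 upward that they expressed. Group 3 was the highest in 4.096% of mutant and 3.27% of wild-type members, group 4 in 27.0% and 30.8%, group 5 in 45.8% and 45.3%, and group 6 or more in 23.1% and 20.6%. After thinning to 2000 UMIs these shares were 11.0% and 11.6%, 27.6% and 30.6%, 41.7% and 39.6%, and 15.7% and 14.6%. The interval of each thinned mutant share overlapped that of its wild-type share. These intervals cover counting error only, and the class shares were not tested between the conditions. Whether members with group 6 or more came from the spinal cord was not tested.

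**Figure D1:**
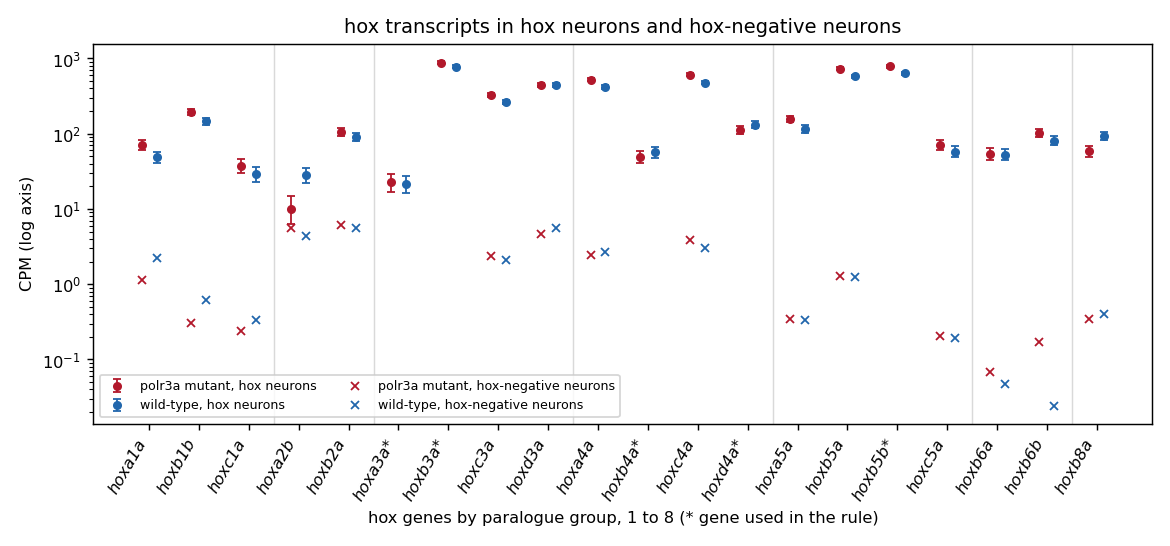
Level of each *hox* gene with at least 100 UMIs in hox neurons, in CPM on a log axis, ordered by paralogue group, in mutant and wild-type hox neurons and, for the genes outside the rule, in hox-negative neurons as crosses. Bars are exact Poisson intervals (95%, counting error only). The levels of hox neurons were at least 2-fold above those of hox-negative neurons in both libraries for 14 of the 15 genes outside the rule, *hoxa2b* being the exception.

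**Figure D2:**
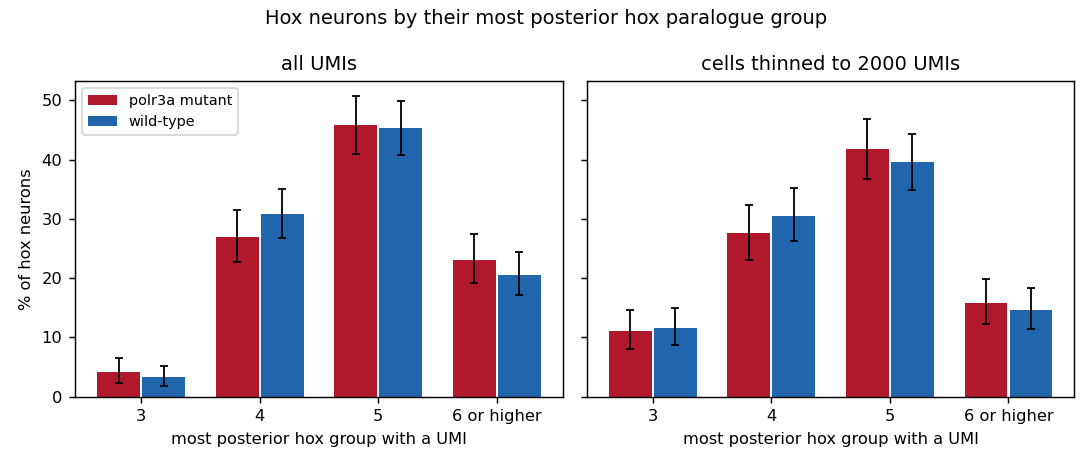
Share of hox neurons (percent) whose highest-numbered *hox* paralogue group is 3, 4, 5, or 6 and more, in mutants and wild-type, with all UMIs and after thinning to 2000 UMIs. Bars are exact Clopper-Pearson intervals. Group 5 is the largest class in both libraries, with 45.8% of mutant and 45.3% of wild-type members before thinning.

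Of the 15 *hox* genes outside the rule, 13 were higher in mutant than in wild-type hox neurons, with a median log2 ratio of 0.33, against 0.10 over all 7891 genes with at least 100 UMIs in hox neurons. None was as much as 1.5-fold higher, a size that 439 of all genes, or 5.56%, reached, and 2 were at least 1.5-fold lower, as were 326 of all genes, or 4.13%. *hoxa1a* had the largest ratio of the 15, with 171 UMIs in 103 mutant cells (70.1 CPM) and 132 UMIs in 93 wild-type cells (48.7 CPM), a log2 ratio of 0.53 (0.19 to 0.86). *hoxa5a*, at 0.44, *hoxb1b*, at 0.40, *hoxc1a*, at 0.37, and *hoxc4a*, at 0.36, followed. The median was 0.11 when each cell's CPM counted equally and 0.13 when the wild-type shares of the position classes were applied to both libraries, and *hoxb1b* then stood at −0.14 and −0.0005007. *hoxd3a*, at 0.01, and *hoxb6a*, at 0.05, were level. The 2 lower genes were *hoxa2b* and *hoxb8a*. *hoxa2b* had 24 UMIs in 15 mutant cells and 77 UMIs in 30 wild-type cells, a log2 ratio of −1.53 (−2.26 to −0.85), which turned to 0.15 without the cells that scored highest as doublets. *hoxb8a* had 143 UMIs in 34 mutant cells and 251 UMIs in 35 wild-type cells (log2 ratio −0.66, −0.97 to −0.36), and 1 wild-type cell held 51 of them. Nearly the same share of cells thus carried *hoxb8a* in both libraries. For the 5 genes of the rule, where every cell was chosen for its UMIs, the log2 ratios were 0.08 for *hoxa3a*, 0.18 for *hoxb3a*, −0.19 for *hoxb4a*, −0.22 for *hoxd4a* and 0.30 for *hoxb5b*.

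Doublets and free RNA touch all of these cells, because a hox neuron is named from few UMIs. Of the hox neurons, 106 in mutants (25.5%) and 177 in wild-type (36.1%) were among the likeliest doublets by score, which were 12.9% and 17.4% of all cells kept. When members with 3 or more UMIs of other cell types' markers were left out, 236 mutant and 233 wild-type hox neurons remained. All 11 neuronal markers were detected, with a summed level of 12731 CPM in mutant and 11194 CPM in wild-type hox neurons. Macrophage markers were nearly absent at 4.51 and 7.38 CPM, with *mpeg1.1* at 0 in both libraries. Photoreceptor markers summed to 607 CPM in mutants and 2245 CPM in wild-type, cartilage markers to 358 and 1002 CPM, and erythrocyte markers to 5096 and 970 CPM, and in each of these 3 lists 3 cells of a library held between 48.9% and 90.004% of the UMIs. For many genes below, the number of cells behind the result is therefore given. Ratios and folds given without it may rest on few cells.

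Some factors of hindbrain neuron classes were higher in hox than in hox-negative neurons, and some were lower. Only genes with at least 100 UMIs in hox neurons were compared, here and for the marker lists below. Genes that are low in hox neurons thus drop out, and the counts of higher and lower genes cannot be weighed against each other. Of 55 measured transcription factors that define neuron classes of the hindbrain and spinal cord, 16 were at least 2-fold higher than in hox-negative neurons in both libraries and 5 were at least 2-fold lower. Of all 7886 genes, 222, or 2.82%, were at least 2-fold higher in both libraries and 47, or 0.596%, lower. The largest folds of the class factors were those of *lbx1a*, which marks neurons of the dorsal hindbrain and directs somatosensory interneuron fates, with log2 folds of 4.97 in mutants and 4.57 in wild-type, and of *pax8*, with 4.13 and 3.00. Among the others were *pax2a* and *pax2b*, which with *pax8* mark inhibitory interneurons, *lhx5*, *atoh1a* (the rhombic lip factor), *ptf1a* (which specifies inhibitory neurons of the dorsal hindbrain), *olig3*, *evx2* (V0-type neurons), *nkx6.1* (ventral progenitors and neurons), *mafba*, *zic1*, *neurod6b*, *hmx2* and *skor1a*. *pax2b*, for example, had 294 UMIs in 99 mutant and 234 UMIs in 85 wild-type cells, and *atoh1a* had 47 UMIs in 10 mutant and 60 UMIs in 14 wild-type cells, so both were found in a minority of the members. The 5 lower factors were *tfap2a*, *tfap2b*, *barhl2*, *gsx1* and *pou3f1*.

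Of 11 measured forebrain and midbrain markers, 4 were at least 2-fold lower than in hox-negative neurons in both libraries and none was higher. Of all 7886 genes, 0.596% were at least 2-fold lower in both libraries and 2.82% higher. The 4 lower markers were *dlx2a*, *six3b*, *en2b* and *tcf7l2*, the last at 103 CPM in mutant and 111 CPM in wild-type hox neurons against 460 and 496 CPM in hox-negative neurons. All 18 forebrain and midbrain markers found in the files summed to 700 CPM in mutant and 862 CPM in wild-type hox neurons, against 1923 and 2064 CPM in hox-negative neurons. Markers of other tissues were present too. All 6 measured muscle markers were also at least 2-fold higher in hox than in hox-negative neurons in both libraries, and 3 cells held 91.9% of the summed muscle UMIs in mutants and 91.3% in wild-type. Also at least 2-fold higher in both libraries were *prrx1a* and *prrx1b* of the arch mesenchyme list, *fli1a* of the endothelium list, and *six1a*, *six1b* and *prph* of the cranial ganglion list. Of the summed UMIs of these lists, 3 cells held smaller shares. In mutants and wild-type these were 26.0% and 12.7% (arch mesenchyme), 20.6% and 18.1% (endothelium), and 11.2% and 14.8% (cranial ganglion). At least 3 UMIs of arch mesenchyme markers were found in 11.1% of mutant and 17.6% of wild-type hox neurons, against 6.24% and 6.22% of hox-negative neurons. The part of these markers in the results was not tested. Of the 13 Hox cofactors, *meis1a*, *meis1b* and *meis3* were at least 2-fold higher than in hox-negative neurons in both libraries, and none of the measured *pbx* genes was. *meis3* had a log2 fold of 2.86 in mutants and 2.07 in wild-type. Of 15 genes of the retinoic acid pathway, 5 were at least 2-fold higher in both libraries, namely the receptors *raraa* and *rarga*, the binding proteins *crabp1b* and *crabp2b*, and *cyp26b1*, an enzyme that breaks retinoic acid down. Further genes with high folds in both libraries, chosen after their values were seen, were *foxd3* (log2 fold 4.396 in mutants and 4.42 in wild-type), a factor of neural crest and of V1-type interneurons, and the homeobox gene *gbx1* (3.66 and 3.25).

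**Figure D3:**
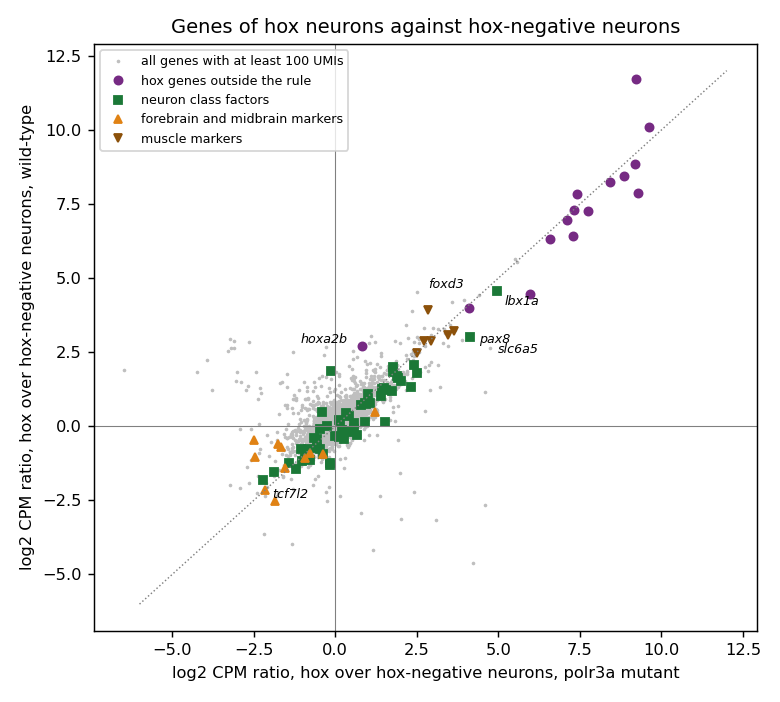
Log2 fold of hox neurons over hox-negative neurons in the mutant library (horizontal axis) and in the wild-type library (vertical axis). Each point is a gene, with *hox* genes outside the rule, neuron class factors, forebrain and midbrain markers and muscle markers drawn in color, and the dotted line marks equal folds. The *hox* genes stand at the upper right, with a median of 7.42 in mutants and 7.32 in wild-type, and *tcf7l2* at the lower left.

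Transmitter genes showed a mixed population. After thinning to 2000 UMIs, a UMI of an inhibitory gene (*gad1a*, *gad1b*, *gad2*, *slc32a1* or *slc6a5*) was found in 28.9% of mutant hox neurons (24.4 to 33.7%, 110 of 381 cells) and in 26.6% of wild-type hox neurons (22.5 to 31.1%, 115 of 432 cells). A UMI of a vesicular glutamate transporter was found in 13.1% of mutant (9.90 to 16.9%) and 12.3% of wild-type hox neurons (9.33 to 15.7%). Without thinning, the inhibitory shares were 39.3% and 33.9%, and the excitatory shares 28.4% and 26.9%. The intervals of the 2 libraries overlapped for both classes. Photoreceptors had inhibitory UMIs in 6.88% of mutant and 7.07% of wild-type cells at this depth. Their excitatory share, 16.4% and 13.4%, is no background, since they use *slc17a7a*, but *slc17a6a* and *slc17a6b*, the transporters of brainstem glutamatergic neurons, were found in at most 0.459% of them and in 5.56% to 7.61% of hox neurons. About 3 in 5 hox neurons, 59.8% in mutants and 63.2% in wild-type, showed neither class at 2000 UMIs. The mix was much the same in hox-negative neurons, so it is not particular to hox neurons. Inhibitory UMIs were found in 26.5% of mutant and 22.4% of wild-type hox-negative neurons, and excitatory UMIs in 14.4% and 14.1%. Neither class was found in 60.4% and 64.6% of them. The excluded hox neurons were more often inhibitory, at 50.5% in mutants and 40.8% in wild-type, and *gata3*, for which some of them were removed, is itself a gene of inhibitory neurons.

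*slc6a5*, the glycine transporter GlyT2 of glycinergic terminals, was frequent in neurons with *hox* transcripts. It was found after thinning in 10.8% of mutant hox neurons (7.83 to 14.3%) and 6.94% of wild-type hox neurons (4.73 to 9.77%), against 0.843% of mutant and 0.903% of wild-type hox-negative neurons and 0.765% and 0.566% of photoreceptors. The excluded hox neurons had it more often, in 19.9% of mutant (15.3 to 25.05%) and 13.8% of wild-type cells (10.4 to 17.8%). Without thinning the shares were 13.5% of mutant and 9.39% of wild-type hox neurons, and the thinned intervals of the 2 libraries overlapped. Its level was 196 CPM in mutants, from 478 UMIs in 56 cells, and 42.1 CPM in wild-type, from 114 UMIs in 46 cells, a log2 ratio of 2.22 (1.92 to 2.53). The cell with the most *slc6a5* UMIs held 106 in mutants and 12 in wild-type, and without these 2 cells the log2 ratio was 2.02. Positive mutant cells held a median of 3.5 UMIs and positive wild-type cells 1. In hox-negative neurons the log2 ratio was 0.11, which the ratio in hox neurons exceeded by 2.11 (1.72 to 2.50), and in excluded hox neurons it was 0.64 (0.40 to 0.88). *gad1a*, 1 of the GABA-synthesising enzymes, had 73 UMIs in 24 mutant cells and 35 UMIs in 16 wild-type cells (log2 ratio 1.21, 0.61 to 1.84). *slc32a1*, the vesicular transporter of both GABA and glycine, had a log2 ratio of 0.57 (0.34 to 0.79), from 389 UMIs in mutants and 292 in wild-type. *gad1b*, at 0.32, *gad2*, at 0.04, and *slc6a9*, the glial-type glycine transporter, at −0.08, had intervals that included 0. The excitatory transporters were alike in the 2 libraries within counting error, with 88 UMIs of *slc17a6a* in mutants and 80 in wild-type (log2 ratio 0.29, −0.16 to 0.75), and 84 and 94 UMIs of *slc17a6b* (−0.01, −0.45 to 0.43). *slc6a1b*, a GABA reuptake transporter, had a log2 ratio of 0.27, and *ache*, the enzyme that splits acetylcholine, 0.55.

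*pax8*, a paired-box factor of inhibitory interneurons, was more frequent in mutant hox neurons. After thinning, *pax8* was found in 11.8% of mutant hox neurons (8.75 to 15.5%) and 3.94% of wild-type hox neurons (2.31 to 6.23%), intervals that do not overlap (14.7% and 6.94% without thinning). Hox-negative neurons had 0.485% and 0.539%, and photoreceptors 0.612% and 0.283%. Its level was 63.2 CPM in mutants (154 UMIs in 61 cells) and 24.7 CPM in wild-type (67 UMIs in 34 cells), a log2 ratio of 1.35 (0.93 to 1.79). In excluded hox neurons *pax8* had 80 UMIs in mutants and 76 in wild-type, a log2 ratio of 0.37 with an interval that included 0 (−0.10 to 0.84). *pax2a* was found in 23.4% of mutant (19.2 to 27.9%) and 16.0% of wild-type hox neurons (12.6 to 19.8%), intervals that overlap (26.3% and 20.2% without thinning), with 907 UMIs in mutants and 699 in wild-type (log2 ratio 0.53, 0.38 to 0.67). In hox-negative neurons its log2 ratio was −0.17. Over the 55 class factors the median log2 ratio was 0.19, with 7 factors at least 1.5-fold higher in mutants (*pax8*, *nkx6.1*, *uncx*, *lhx1a*, *onecut1*, *en1b* and *olig3*) and 2 at least 1.5-fold lower (*gsx2* and *skor1b*). Of all 7891 genes, 5.56% were at least 1.5-fold higher and 4.13% lower. *nkx6.1* had 106 UMIs in 33 mutant cells and 54 UMIs in 23 wild-type cells (log2 ratio 1.13, 0.64 to 1.63), but after thinning was found in 3.94% of mutant and 3.24% of wild-type members (7.95% and 4.69% without thinning). *gsx2*, a factor of dorsal progenitors, had 62 UMIs in 9 mutant cells and 149 UMIs in 20 wild-type cells (−1.11, −1.56 to −0.68), a ratio that turned to 0.47 when cells with 3 UMIs of other cell types were left out.

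**Figure D4:**
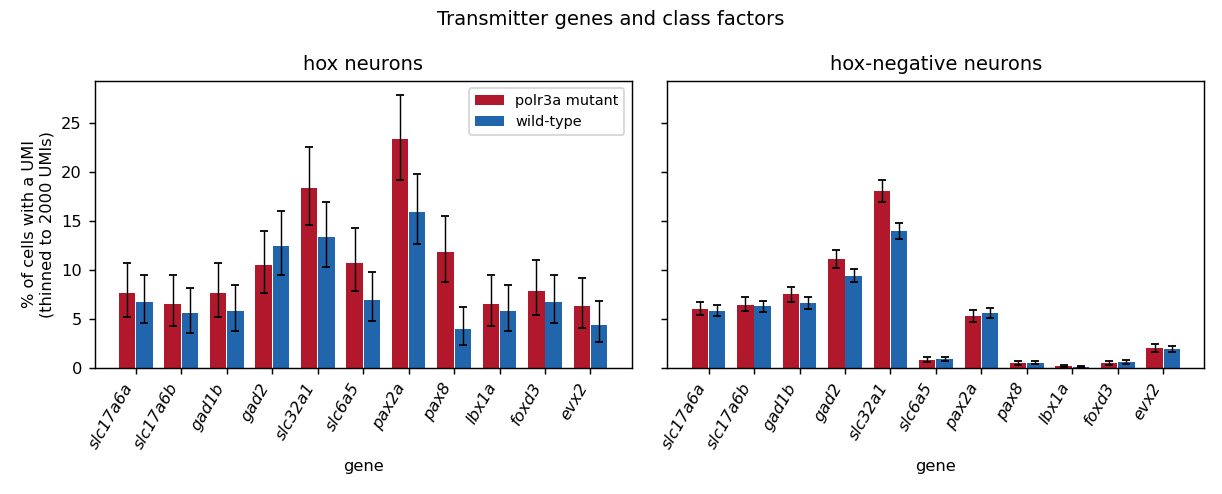
Share of cells (percent) with a UMI of each gene after thinning to 2000 UMIs, for transmitter genes and class factors in hox neurons (left) and hox-negative neurons (right) of both libraries. Bars are exact Clopper-Pearson intervals. *pax8* was found in 11.8% of mutant against 3.94% of wild-type hox neurons and *slc6a5* in 10.8% against 6.94%, and each was under 1% of hox-negative neurons in both libraries.

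Hox cofactors and retinoic acid genes were described as lists. The median log2 ratio was 0.34 over the 13 Hox cofactors, of which none passed 1.5-fold, with *meis3* at 0.58 (0.28 to 0.88, 221 UMIs in mutants and 164 in wild-type), *meis2b* at 0.54 and *meis2a* at 0.44. In hox-negative neurons the median over the same genes was −0.00. Over the 15 retinoic acid genes the median was −0.05, and in hox-negative neurons 0.17 over the same genes. In hox neurons 4 of the 15 were at least 1.5-fold lower, all of them retinoid-binding proteins, against 4.13% of all 7891 genes. *rbp5* had 75 UMIs in 41 mutant cells and 330 UMIs in 68 wild-type cells (log2 ratio −1.98, −2.37 to −1.62), *crabp1a* 80 UMIs in 30 mutant cells and 223 UMIs in 55 wild-type cells (−1.33), and *crabp2a* 49 UMIs in 17 mutant cells and 86 UMIs in 26 wild-type cells (−0.66). One wild-type cell held 114 of the *rbp5* UMIs, and without the top cells the log2 ratio was −1.49. The fourth was *crabp2b*. With the rule applied after thinning, the log2 ratio of *crabp2a* turned to 0.11. The receptors *raraa* and *rarga* were within 1.5-fold.

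Genes of dividing cells were lower in mutant hox neurons. Of 40 progenitor and cycling genes measured, 20 were at least 1.5-fold lower in mutants and 1, *neurog1*, was at least 1.5-fold higher, with a median log2 ratio of −0.56, and 28 had an interval below 0. Of all 7891 genes, 326, or 4.13%, were at least 1.5-fold lower. The median of the cycling list was −0.18 in hox-negative neurons and −0.82 in excluded hox neurons. *ube2c*, a ubiquitin-conjugating enzyme of mitosis, had 79 UMIs in 33 mutant cells and 330 UMIs in 70 wild-type cells (log2 ratio −1.91, −2.28 to −1.55). *tpx2*, a spindle assembly factor, had 61 and 184 UMIs (−1.44), and *cdk1*, the kinase that drives entry into mitosis, 70 and 207 UMIs (−1.41). Cells with at least 2 UMIs from 8 cycling genes after thinning made up 4.99% of mutant hox neurons (3.03 to 7.68%, 19 of 381) and 12.3% of wild-type hox neurons (9.33 to 15.7%, 53 of 432). These intervals do not overlap, and without thinning the shares were 11.8% and 16.5%. The same share was 11.8% of mutant and 14.9% of wild-type hox-negative neurons, and 2.45% and 5.94% of photoreceptors. When the rule was applied after thinning, the shares were 2.25% and 5.15% and the median log2 ratio of the list was −0.06. With at least 3 of the 5 *hox* genes required, the median was 0.017. Without the cells of highest doublet score the shares were 2.90% in mutants and 7.63% in wild-type. The part of depth and of doublets in this result was not tested.

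Genes of mature neurons lay on the other side. Of 66 neuronal maturation and synapse genes, 63 had a log2 ratio above 0 and 45 an interval above 0, with a median of 0.30. Of all 7891 genes, 5011 had a log2 ratio above 0 and 439, or 5.56%, were at least 1.5-fold higher. Their median was 0.10, and a count of their intervals above 0 is not given here. In hox-negative neurons the median over the same 66 genes of neuronal maturation was 0.18. At least 1.5-fold higher were 10, among them *camk2n1a*, an inhibitor of CaM kinase II, with 198 UMIs in 96 mutant cells and 122 UMIs in 77 wild-type cells (log2 ratio 0.85, 0.52 to 1.19), *sncgb*, a synuclein, with 1231 and 775 UMIs (0.82, 0.69 to 0.95), and *snap25a*, a SNARE protein of synaptic vesicle fusion, with 1394 and 1022 UMIs (0.60). *gng3* was at 0.28 and *elavl4* at 0.25. The single lower gene was *nefma*, a neurofilament, with 28 UMIs in 10 mutant cells and 96 UMIs in 7 wild-type cells, of which 1 wild-type cell held 62. Of 24 transmitter receptors, 3 were at least 1.5-fold higher, among them the kainate receptor subunit *grik4* (log2 ratio 0.80, 0.56 to 1.04) and the GABA-A receptor subunit *gabra3* (0.65). The list's median was 0.30 in hox neurons and 0.33 over the same genes in hox-negative neurons.

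The integrated stress response is the programme by which Atf4 and its partners raise amino acid supply, tRNA charging and chaperones when translation is disturbed. Its genes were higher in mutant hox neurons. Of 16 stress response genes measured, 10 were at least 1.5-fold higher and none lower, with a median log2 ratio of 0.60. Of all 7891 genes in hox neurons, 439, or 5.56%, were at least 1.5-fold higher. In hox-negative neurons the median over the same 16 stress genes was 0.77. The rise was smaller in excluded hox neurons, where 2 of 15 stress genes were at least 1.5-fold higher and 1 lower, with a median of 0.30. Of all 7060 genes measured in excluded hox neurons, 479, or 6.78%, were at least 1.5-fold higher. In hox-negative neurons 700 of 17033 genes, or 4.11%, were at least 1.5-fold higher in mutants. *atf5b*, a transcription factor of this response, had 135 UMIs in 58 mutant cells and 13 UMIs in 13 wild-type cells (log2 ratio 3.53, 2.71 to 4.48). *ddit4*, an inhibitor of TORC1 signalling, had 217 UMIs in 147 mutant cells and 80 UMIs in 72 wild-type cells (1.59), and *atf3* had 106 UMIs in 57 mutant and 55 UMIs in 43 wild-type cells (1.099). *hspa5*, the endoplasmic reticulum chaperone BiP, was the 1 gene of the list below 0. Ratios were smaller in hox than in hox-negative neurons for 11 of the 16 genes, by a median of 0.05 on the log2 scale and by 0.26 without the highest doublet scores. When the hox neurons over 10000 UMIs were left out, the number of all 6220 genes higher stayed within 1.5 times of 439. Of the stress genes, 3 of 13 were then at least 1.5-fold higher with a median of 0.46. Without the cells that held other types' markers it was 3 of 13 with a median of 0.40, where 185 of all 4173 genes were higher.

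Of all 7891 genes, 5011 had a log2 ratio above 0, and so did all 17 cytosolic aminoacyl-tRNA synthetases. The synthetases had a median of 0.48, and 6 of the 17 were at least 1.5-fold higher. Of all 7891 genes, 439, or 5.56%, were at least 1.5-fold higher and 326, or 4.13%, lower. The synthetases load tRNAs, themselves products of Pol III, with their amino acids. *yars* had 170 UMIs in 88 mutant cells and 73 UMIs in 61 wild-type cells (1.37, 0.97 to 1.79), *tars* was at 0.79 and *mars* at 0.77. In hox-negative neurons the median over the same genes was 0.83, and 16 of the 17 had the smaller ratio in hox neurons. In excluded hox neurons the synthetases had a median of 0.25, and 6 of 17 were at least 1.5-fold higher. Genes of amino acid synthesis and transport had a median of 0.52 over 25, with 12 at least 1.5-fold higher, and 1 lower. In excluded hox neurons this list had a median of 0.73 over 19, with 11 at least 1.5-fold higher. Of all 7060 genes measured in excluded hox neurons, 479, or 6.78%, were at least 1.5-fold higher. *mat2ab*, which makes S-adenosylmethionine, had 117 UMIs in 48 mutant and 42 UMIs in 30 wild-type cells (1.63), and *slc1a4*, a neutral amino acid transporter, 254 and 99 UMIs (1.51). The lower gene was *slc3a2a*, with 28 UMIs in 10 mutant cells and 85 UMIs in 24 wild-type cells (−1.45).

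Of 22 genes of the p53 pathway, 4, or 18.2%, were at least 1.5-fold higher in mutant hox neurons and none lower. Of all 7891 genes, 439, or 5.56%, were at least 1.5-fold higher. The median log2 ratio of the list was 0.16, against 0.10 over all genes. In excluded hox neurons 1 of 18 was at least 1.5-fold higher and 1 lower, with a median of −0.02. Of all genes measured there, 6.78% were at least 1.5-fold higher and 4.26% lower. *cdkn1a*, the cell cycle inhibitor p21, had 170 UMIs in 59 mutant cells and 45 UMIs in 27 wild-type cells (2.07, 1.59 to 2.58). *ccng1* had 1004 UMIs in 144 mutant cells and 365 UMIs in 148 wild-type cells (1.61), so it was higher in like numbers of cells. The others were *phlda3*, at 0.84, and *mdm2*. *cdkn1a* was found after thinning in 6.30% of mutant and 2.08% of wild-type hox neurons, against 2.60% and 1.70% of photoreceptors, and without thinning in 14.2% and 5.51% of hox neurons. When the cells over 10000 UMIs were left out, 1 of 16 p53 pathway genes was at least 1.5-fold higher.

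Transcripts for ribosomal proteins were lower as a group. All 80 measured genes were below 0, 79 with an interval below 0, with a median log2 ratio of −0.47. Of these 80, 14 were at least 1.5-fold lower, against 326, or 4.13%, of all 7891 genes. The median was −0.46 in hox-negative neurons and −0.50 in excluded hox neurons. *rpl22l1* had the largest difference, at 237 CPM in mutants and 631 CPM in wild-type (−1.41), and *rplp1* and *rps12* were each at −0.64. CPM are shares of a total, so a lower share of 1 large group lifts the others, and the median of all genes was 0.10. Centred on that median, 250 rather than 439 genes were at least 1.5-fold higher, and the ribosomal protein median was −0.57. Of 47 ribosome assembly factors, none differed by 1.5-fold, with a median of 0.00 and *rrs1*, at −0.54, *rsl1d1*, at −0.51, and *rrp12*, at −0.44, farthest from 0. Of 11 Pol III subunits and factors, none differed by 1.5-fold, with a median of 0.08. The farthest were *polr1c*, a subunit shared with RNA polymerase I, at 0.51, *polr3k* at 0.43 and *gtf3c3* at −0.42. Of 14 immediate early genes, which dissociation can induce, none differed by 1.5-fold, and the median was 0.06, with *egr4* at −0.48, *ier2a* at −0.34 and *fosaa* at 0.32.

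**Figure D5:**
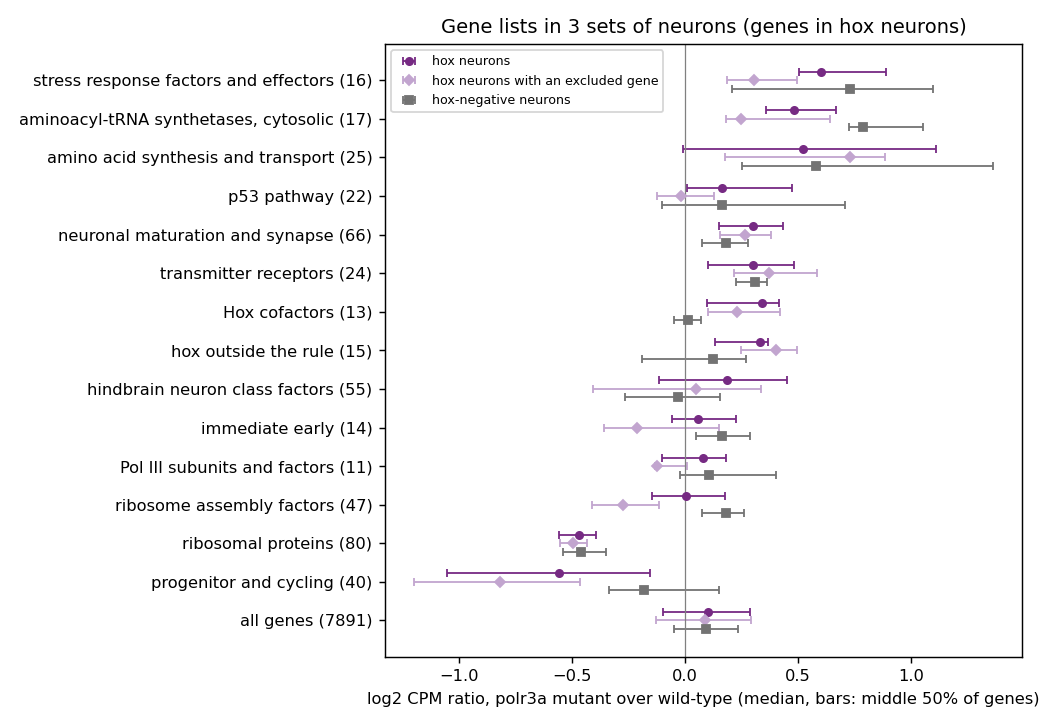
Median mutant over wild-type log2 CPM ratio of each gene list in hox neurons, in excluded hox neurons and in hox-negative neurons, with bars that span the middle 50% of genes. Each population uses its own genes with at least 100 UMIs, and the number after a list is that of genes in hox neurons. Stress response genes have a median of 0.60 and progenitor and cycling genes a median of −0.56 in hox neurons.

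The largest ratios over all genes were mostly carried by single cells. Among genes with 200 UMIs or more, the 10 highest and the 10 lowest log2 ratios were taken, and of these 20 genes 18 had over 10% and 16 over 30% of their UMIs in 1 cell. *rho*, the rod opsin, was at 5.49 with 778 of 1576 mutant UMIs in 1 cell, *hbbe1.1*, a haemoglobin, at 2.95 with 3074 of 6399 mutant UMIs in 1 cell, and *tyrp1b*, a pigment cell enzyme, at −5.999 with 334 of 640 wild-type UMIs in 1 cell. *igfbp1a*, which binds insulin-like growth factors, was spread over cells, with 302 UMIs in 71 mutant cells and 23 UMIs in 17 wild-type cells (3.87, 3.25 to 4.55), and in hox-negative neurons its log2 ratio was 3.51. *ociad2*, a mitochondrial protein, was at 2.25, with 266 UMIs in 49 mutant cells and 62 UMIs in 38 wild-type cells.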

How the data were processed

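Single-cell RNA-sequencing of 2 libraries, 1 per condition, was used. The deposited matrices hold raw UMI counts per gene and barcode, which the authors made with Cell Ranger 8.0.0 as the file header gives it (the methods of the study name another version), and the submitters' processing notes name the build GRCz11. UMIs of the hox neurons were summed per library and scaled to a total of 1000000 (CPM). Intervals at 95% were conditional binomial for log2 CPM ratios, Poisson for levels and Clopper-Pearson for shares, all exact, and UMIs of 1 cell are not independent, so they cover counting error only. Ratios and lists used genes with at least 100 UMIs in the cells compared. For shares, cells were thinned to 2000 UMIs, and shallower cells were left out (34 of 415 mutant and 58 of 490 wild-type hox neurons). Doublets were scored after the Scrublet method, on 30 components of 2000 variable genes and 2 simulations for each cell, and were kept except in an alternative. Photoreceptors were cells with at least 5 of 11 photoreceptor markers. Named were *hox* and transmitter genes with 100 UMIs or more, the 3 largest absolute ratios of each list, the 10 largest and 10 smallest ratios among genes with 200 UMIs or more, the 12 largest and 8 smallest folds over hox-negative neurons, class factors with a 2-fold difference, and the 5 largest and smallest differences between populations, 160 genes in all. Other named genes and the genes for which shares are given were chosen after their values were seen. Some genes that the rule names are not reported here. The members and lists were chosen with earlier results of these data known. Other thresholds, membership rules, scalings and doublet removal were tried as alternatives. Figures were drawn with matplotlib 3.10.9, doublet neighbours found with scikit-learn 1.9.0, tables handled with pandas 2.3.3, and intervals computed with scipy 1.17.1 and numpy 2.4.6, under Python 3.11.15.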

Additional observations from a re-analysis of the deposited data

Results flagged for a closer look

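Among 7875 genes with at least 100 UMIs in both populations, 243 had an interval of the mutant over wild-type log2 ratio on opposite sides of 0 in hox neurons and in hox-negative neurons. They included 10 genes named in this report, and the difference between the 2 populations was not tested. Genes were named in part for large ratios or large differences between the populations, so these 10 are a description only. Higher in mutant hox neurons and lower in mutant hox-negative neurons were *hoxa1a*, at 0.526 against −0.98, *meis3*, at 0.5829 against −0.21, *pax2a*, at 0.5283 against −0.17, and *gad1a*, at 1.213 against −0.47. Lower in mutant hox neurons and higher in mutant hox-negative neurons were *hoxa2b*, at −1.529 against 0.35, *rbp5*, at −1.985 against 0.12, *crabp2a*, at −0.659 against 0.47, *gsx2*, at −1.112 against 0.87, *crhb*, a corticotropin-releasing hormone, at −0.6693 against 0.58, and *rsl1d1*, a nucleolar protein, at −0.5098 against 0.12. The UMIs of *gsx2* came from 9 mutant and 20 wild-type hox neurons, and those of *crhb* from 14 mutant and 30 wild-type hox neurons. In hox-negative neurons *hoxa1a* had 1.13 CPM in mutants and 2.23 CPM in wild-type, against 2.88 and 1.74 CPM in photoreceptors. *hoxa2b* had 5.59 and 4.37 CPM there, against 4.11 and 4.84 CPM in photoreceptors. For both genes the hox-negative ratio thus rests on background-level UMIs, and an opposite response is not shown.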

How the results depend on the processing

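With 1 library per condition no replicate could be left out. No paired analysis was possible because no test between the conditions was made. Of the summary values under the alternatives, 172 stayed within their counting error or within 1.5 times, 86 moved further and 1 changed sign, and of the named genes' values 822 stayed, 203 moved and 19 changed sign. Where membership was stricter fewer genes reached 100 UMIs (3355 with 3 *hox* genes, 4255 after thinning, 4173 without cells of other types, 5429 without doublets, 6220 without deep cells, against 7891), and the cause of the shifts in counts was not tested. The stress, p53 pathway, synthetase and amino acid genes compared were 11, 12, 8 and 7 with 3 *hox* genes. They were 13, 13, 12 and 9 after thinning, and 13, 13, 11 and 11 without cells of other types. Without doublets they were 13, 14, 16 and 17, and without deep cells 13, 16, 17 and 18. With unchanged members and minimum they were 16, 22, 17 and 25. Without doublets, without deep cells and with each cell's mean CPM, the number of all genes higher stayed within 1.5 times of 439. Requiring 2 UMIs, excitatory shares were 4.199% in mutants and 1.85% in wild-type, and inhibitory shares 20.7% and 14.6%; thinned to 1000 UMIs they were 6.75% and 8.04%, and 22.4% and 19.4%. With at least 3 of the 5 *hox* genes, 0.473% of mutant and 0.408% of wild-type cells were members, the mutant excitatory share was 18.3%, the wild-type inhibitory share 34.0% and the wild-type cycling share 6.94%, 281 genes were higher and 203 lower, 3 stress, 3 synthetase and 3 amino acid genes were higher, 110 genes were higher than in hox-negative neurons, the medians were 0.53 (*hox* outside the rule), 0.017 (progenitor) and 0.47 (stress), *pax2b* was −0.30 and *slc3a2a* 1.01. With a minimum of 30 UMIs, 1230 genes were higher, 1027 lower, 7 of the p53 pathway higher and 389 higher than in hox-negative neurons; with 300, 104, 101, 1 and 89, with 5 stress and 5 amino acid genes higher. Centred on the median of all genes, 250 were higher, and the medians were −0.57 (ribosomal proteins) and 0.50 (stress). With a fold of 2, 81 genes were higher and 174 lower, with 4 stress, 2 p53 pathway and 1 synthetase genes higher. Without the highest doublet scores, 1.30% of mutant and 1.005% of wild-type cells were members, cycling shares were 2.90% and 7.63%, 216 genes were lower, 4 stress and 1 p53 pathway genes higher, the stress median 0.49, its difference from hox-negative neurons −0.26, *hoxa2b* 0.15 and *slc6a1b* −0.084. Without members over 10000 UMIs, 1.30% and 1.14% were members, 3 stress, 1 p53 pathway and 3 synthetase genes were higher, the stress median was 0.46 and *urp1* −6.335. Without members that held 3 UMIs of other types, 0.865% and 0.617% were members, the wild-type cycling share was 6.70%, 185 genes were higher and 129 lower, 3 stress, 1 p53 pathway, 3 synthetase and 4 amino acid genes higher, the stress median 0.40, *gsx2* 0.47 and *urp1* −6.614. With the rule applied after thinning, 1.07% and 0.869% were members, cycling shares were 2.25% and 5.15%, the wild-type excitatory share 16.3% and inhibitory share 31.3%, 136 genes were higher and 86 lower, 2 stress, 1 p53 pathway, 1 synthetase and 4 amino acid genes higher, 127 genes higher than in hox-negative neurons, the medians −0.25 (ribosomal), 0.21 (*hox*), −0.060 (progenitor) and 0.50 (stress), the stress difference −0.33, *hoxa2b* 0.70, *crabp2a* 0.11, *gsx2* 1.25, *neurod6b* −0.19, *hmx2* −0.068, *skor1a* −0.064 and *urp1* −3.95. With the mean of each cell's CPM, 6 stress genes were higher, the medians were 0.11 (*hox*) and 0.49 (stress), *hoxb1b* −0.14 and *hoxb6b* −0.026. With the wild-type position classes applied to both libraries, the *hox* median was 0.13, *hoxb1b* −0.0005007 and *hoxb6b* −0.15. Leaving out each gene's highest cell, an alternative chosen after seeing the data, put *urp1* at −2.75.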

Other observations

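Of the 26 neuropeptide genes found in the files, 4 reached 100 UMIs in hox neurons, as did 7891 of all genes in the files. *crhb* had 99 UMIs in 14 mutant hox neurons and 175 UMIs in 30 wild-type hox neurons, with log2 folds over hox-negative neurons of 2.16 in mutants and 3.41 in wild-type. *urp1*, a urotensin-related peptide, had 450 UMIs in mutants and 188 in wild-type, of which 1 cell held 448 in mutants and 173 in wild-type.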
